A study of Mus musculus with 4 samples.

Results

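The genes described here are 31 genes of fatty acid oxidation in mitochondria and peroxisomes, chosen by their symbols, and all 31 were found among the 35275 genes with a read count in mouse liver. Female mice formed 4 groups whose liver RNA was sequenced, vehicle sedentary (VS), vehicle interval exercise (VI), fibril sedentary (FS) and fibril interval exercise (FI). Mice of all groups carried the amyloidogenic Apoa2c allele as a congenic genotype; the sample labels give the strain as AKR/J, whereas the study's methods name R1.P1-Apoa2c on a SAMR1 background. FS and FI mice had been injected intravenously with AApoAII amyloid fibrils, which seed deposition of apolipoprotein A-II in many organs, and VS and VI mice with the vehicle. VI and FI mice ran a treadmill programme of interval training (IT) for 16 weeks, VS and FS mice did not, and livers were taken at 26 weeks of age. Each group is 1 library, made from the combined tissue of 4 mice, so no value has an error between mice and no contrast of 2 libraries has a test. Total counts were between 23442935 in VS and 28814802 in FS, and the lowest count of any of the 31 genes in any library was 1500.

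Beta-oxidation shortens a fatty acid from its carboxyl end in a repeated cycle of dehydrogenation, hydration, a second dehydrogenation and thiolytic cleavage. Long-chain fatty acids are bound in the cytosol, activated to acyl-CoA and carried into mitochondria as carnitine esters, whereas very long chains are first shortened in peroxisomes, which then pass the products on. In liver the pathway supplies energy and ketone bodies during fasting, and many of its genes are known targets of the nuclear receptor PPARα, which binds direct repeats of a short motif with 1 base between them.

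The bases before the start of 3 of these genes are shown as examples. Fabp1 was 1 of 6 genes lower after IT in both contrasts (29.8% of all genes), and Acadvl was 1 of 5 higher after IT in both (30.7%). Acaa1b had the largest difference between fibril and vehicle livers. They were read from the RefSeq promoter sequences on GRCm38.p6 and are written 5′ to 3′ on the strand of the gene. The stretches of Acadvl and Acaa1b end at the RefSeq start, and that of Fabp1 ends 52 bases before it, where the gene begins in the count table. Capitals mark, in Fabp1, a direct repeat of the hexamer AGGNCA with 1 free base between its copies and, in Acadvl, the single hexamer AGGTCA. The stretch of Acaa1b holds neither. Nor do those of Abcd3, Acsl1 and Pex11a, which like Acadvl were higher after IT in both contrasts. The stretches of Acsl5 and Hadh, which like Fabp1 were lower in both, hold neither as well. That of Echs1, also lower in both, holds the single hexamer AGGTCA. Whether these letters go with the direction of the IT change was not tested.
Fabp1, chr6:71199727-71199826, plus strand: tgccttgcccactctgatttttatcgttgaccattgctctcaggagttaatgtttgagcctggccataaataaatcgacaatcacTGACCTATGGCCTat
Acadvl, chr11:70015429-70015528, minus strand: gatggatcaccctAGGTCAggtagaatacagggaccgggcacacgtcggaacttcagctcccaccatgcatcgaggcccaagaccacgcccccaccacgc
Acaa1b, chr9:119157094-119157193, minus strand: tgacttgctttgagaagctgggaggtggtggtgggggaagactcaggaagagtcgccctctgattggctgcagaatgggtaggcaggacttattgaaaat
The match of Fabp1 lies on the opposite strand, 67 to 55 bases before the RefSeq start, and its first 6 letters as printed are AGGTCA read on the other strand, so it overlaps a match to the single hexamer. That of Acadvl lies 87 to 82 bases before the start. Both strands of the 250 bases before the start were searched for 27 of the 31 genes that had an entry. The repeat was found in 1 of them, Fabp1 (3.7%), against 0.4% of all genes in the table, and the stricter repeat of AGGTCA, again with 1 free base between the copies, in 0, against 0.0407%. The single hexamer AGGTCA was found in 6, Acadm, Acadvl, Echs1, Fabp1, Scp2 and Slc27a2 (22.2%), against 15.8% of all genes. A match is a stretch of letters and not a binding site, and the absence of one says only that these letters are not in this window.

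Per gene length, the 31 genes spanned a wide range of levels. Fabp1, the liver fatty acid binding protein that carries fatty acids in the cytosol, was the highest, with 6442 FPKM (fragments per kilobase of gene length, scaled by library size) for VS, 3824 for VI, 4487 for FS and 2761 for FI. The peroxisomal thiolase Acaa1b was next by its mean, with 1786 FPKM for VS, 1146 for VI, 480 for FS and 539 for FI. Scp2, whose long form is the thiolase for branched chains, followed with a mean of 755 FPKM. Crat, the carnitine acetyltransferase that acts on short acyl groups, was the lowest, with 28.0 FPKM for VS, 27.4 for VI, 12.3 for FS and 22.9 for FI. Acsl5 and Hadhb were the next lowest, with means of 59.6 and 60.5 FPKM. Even the lowest of the 31 genes was thus read well above the limit that a count of 0 allows, which was at most 0.127 counts scaled by library size (CPM).

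**Figure D1:**
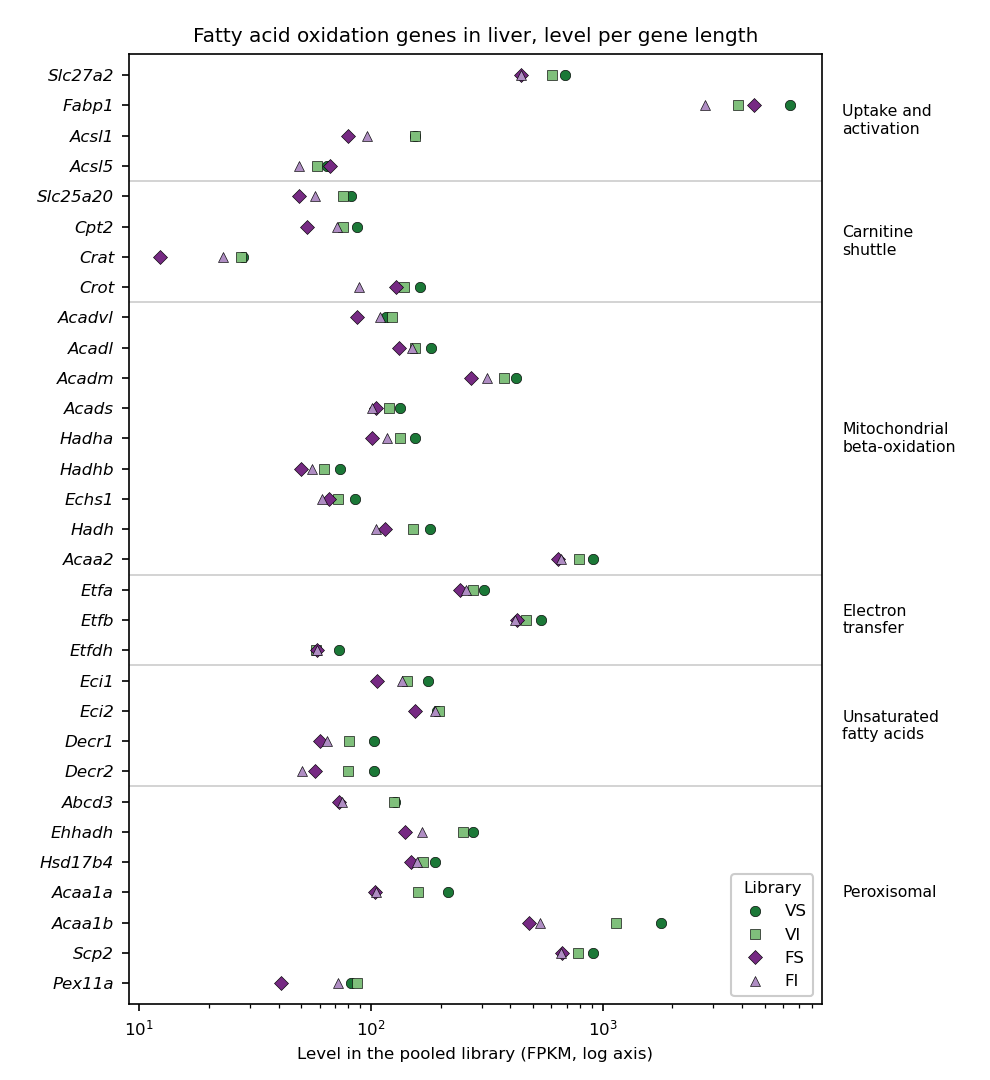
Level of each fatty acid oxidation gene in the 4 pooled libraries (horizontal log axis, FPKM), with genes grouped by role; each symbol is 1 library of 4 mice. Fabp1 lies far to the right of all others and Crat far to the left, and for most genes the circle of VS is the rightmost and the diamond of FS the leftmost.

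Together the 31 genes took 2.31% of all counts for VS, 1.85% for VI, 1.43% for FS and 1.40% for FI. Fabp1 alone supplied between 10.9% (FI) and 17.3% (FS) of the counts of these genes. Without it, the summed level was 19350 CPM for VS, 16532 for VI, 11557 for FS and 12738 for FI, with CPM scaled by the TMM method here and below. The sum was thus highest in VS and lowest in FS, and both trained libraries lay between them. With Fabp1 included, FI was above FS on the TMM scale (14303 against 13979 CPM) and below it as a share of all counts. Of the 31 genes, 25 had their highest level in VS (26.5% of the 12180 genes with at least 1 CPM in a library did) and 25 their lowest in FS (24.1%). In bulk tissue, fewer cells that express a gene and less of its RNA per cell cannot be told apart.

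Fibril livers held less RNA of nearly the whole pathway than vehicle livers, and the difference was larger between the sedentary pools. In FS versus VS, 30 of the 31 genes were lower (48.0% of all genes), the exception being Acsl5, and the median log2 ratio was −0.63, a level 1.55-fold lower, against 0.02 for all genes. In FI versus VI, 30 were lower as well (48.7% of all genes), the exception being Etfdh, with a median of −0.23, or 1.17-fold lower, against 0.01. These 2 contrasts share no library. For 27 genes both vehicle libraries lay above both fibril libraries (22.0% of all genes), the others being Fabp1, Acsl5, Etfdh and Eci2. By size, 16 genes were lower by more than 1.5-fold in FS versus VS (7.47% of all genes) and 5 in FI versus VI (6.08%), so the share of these genes in the trained pair was above that of all genes by less than in the sedentary pair. More than 2-fold lower were 4 genes in FS versus VS (2.20%), Acaa1b, Crat, Acaa1a and Pex11a, and 1 in FI versus VI (1.95%), Acaa1b. The 4 became 3 with total counts or FPKM, on which Pex11a was just under 2-fold, and 5 with DESeq2 size factors. No member was higher by more than 1.5-fold in FS versus VS (10.1% of all genes) or in FI versus VI (7.9%). Lower by more than 1.5-fold in both were 4 genes (2.40%), Acaa1b, Abcd3, Acsl1 and Decr2.

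**Figure D2:**
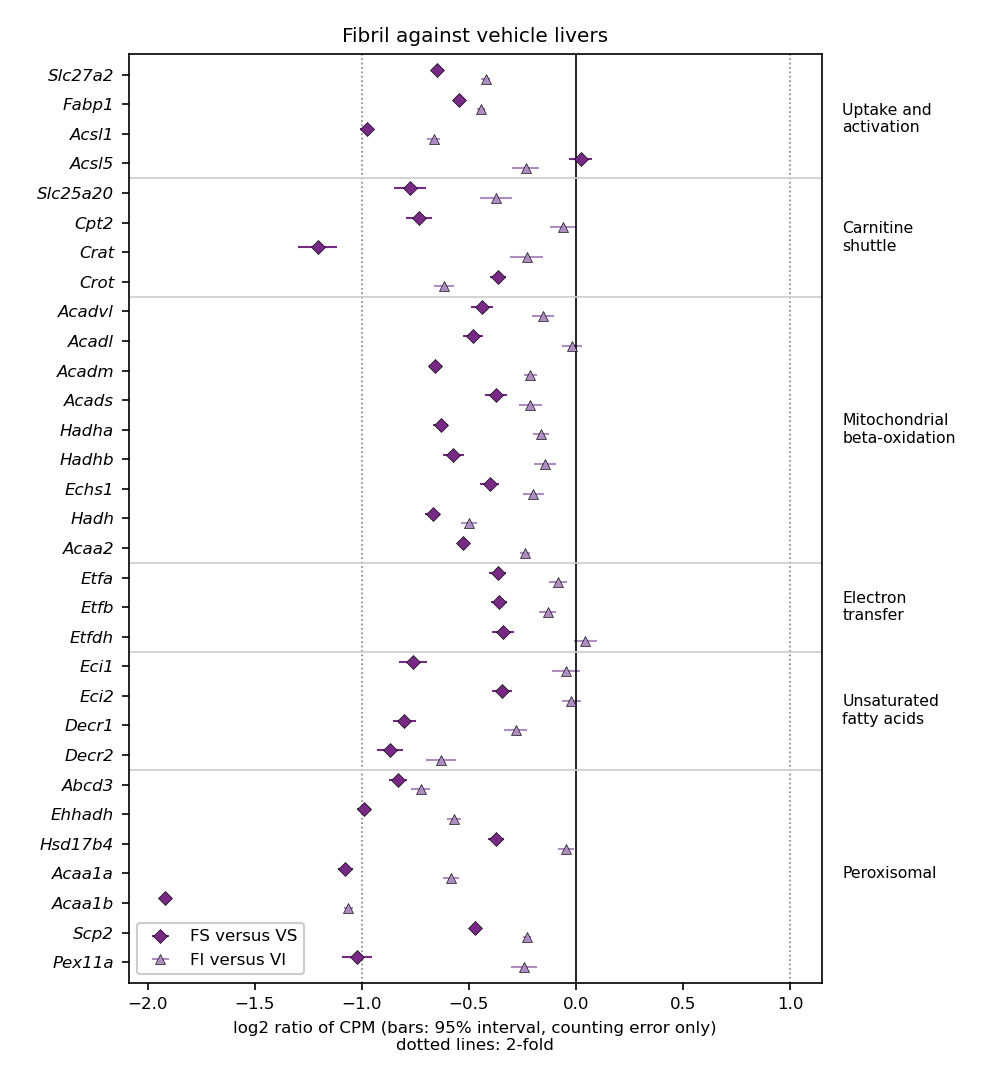
Log2 ratio of CPM in fibril against vehicle livers for each gene, FS versus VS as diamonds and FI versus VI as triangles, with exact 95% intervals that cover counting error only and dotted lines at 2-fold. Acaa1b lies farthest to the left in both contrasts, and the triangle is nearer to 0 than the diamond for all genes except Acsl5 and Crot.

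IT went with opposite directions in the vehicle and the fibril livers. In VI versus VS, 26 of the 31 genes were lower (49.3% of all genes), with a median log2 ratio of −0.18 against 0.00 for all genes. In FI versus FS, 25 were higher (50.2% of all genes), with a median of 0.17 against 0.00. Scaled by total counts in place of TMM, which shifted the median of all genes by −0.07 in FI versus FS, 21 were higher and 10 lower there. Lower in VI and higher in FI than in their sedentary pools were 20 genes (19.5% of all genes), lower in both 6 (29.8%) and higher in both 5 (30.7%). None was higher in VI and lower in FI (20.0% of all genes). The IT change of the fibril pair minus that of the vehicle pair was above 0 for 29 of the 31 genes, with a median of 0.32 on the log2 scale, against −0.01 for all genes, of which 48.8% were above 0. Few of these changes were large. Fabp1 and Acaa1b were lower by more than 1.5-fold in VI versus VS (6.30% of all genes), Crat and Pex11a were higher by that much in FI versus FS (5.98%), and Fabp1 was lower by that much in FI versus FS (7.55%). None of the 31 genes passed 2-fold in either IT contrast, and few of all genes did. In VI versus VS 1.54% of all genes were higher and 1.9% lower by that much, in FI versus FS 1.75% and 2.53%. Each library enters 1 contrast of each kind, so the VS level bears on VI versus VS and FS versus VS alike, and the FS level on FS versus VS and FI versus FS.

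**Figure D3:**
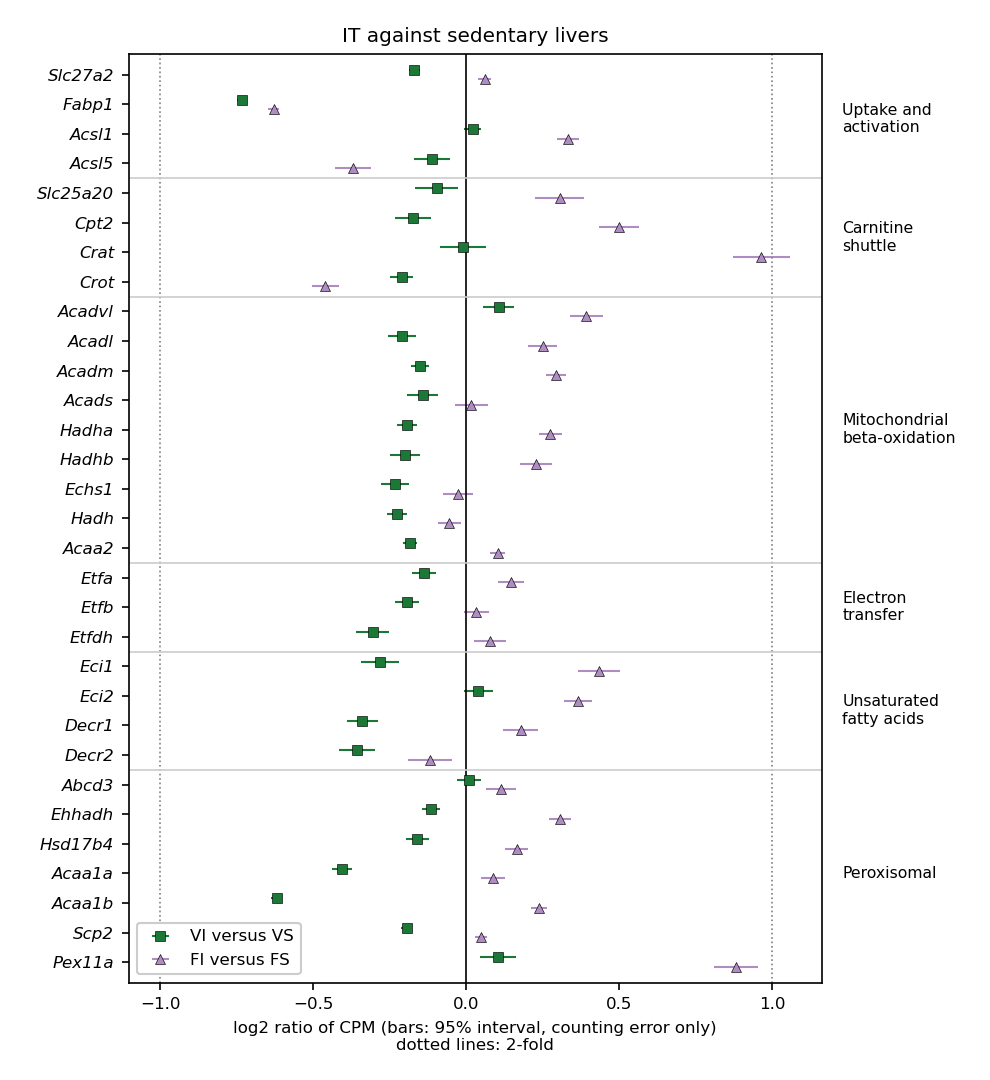
Log2 ratio of CPM in IT against sedentary livers for each gene, VI versus VS as squares and FI versus FS as triangles, with exact 95% intervals that cover counting error only and dotted lines at 2-fold. Most squares lie left of 0 and most triangles right of it, while both symbols of Fabp1 lie left and the triangles of Crat and Pex11a lie farthest to the right.

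The genes of fatty acid uptake and activation did not share 1 pattern. Fabp1 (chr6:71199827-71205023) was read at 3537 CPM for VS, 2129 for VI, 2422 for FS and 1565 for FI. It was the gene with the largest difference after IT in VI versus VS, with a log2 ratio of −0.73 (95% interval −0.75 to −0.72), and it was lower in FI versus FS too, by −0.63 (−0.65 to −0.61). VI lay below FS, so the vehicle and fibril libraries overlapped. Acsl1, the main long-chain acyl-CoA synthetase of liver, was at 863 CPM for VS, 876 for VI, 439 for FS and 553 for FI. Both vehicle libraries were nearly equal and lay above both fibril libraries, with log2 ratios of −0.98 in FS versus VS and −0.66 in FI versus VI. Slc27a2, a fatty acid transporter and very long chain acyl-CoA synthetase, was at 1991 CPM for VS, 1771 for VI, 1268 for FS and 1323 for FI. Its 2 fibril libraries were close together, and which of them was higher depended on the scaling, FI on TMM and FS on total counts. Acsl5, a second long-chain synthetase, was at 201 CPM for VS, 186 for VI, 204 for FS and 158 for FI. It was thus the 1 gene that was not lower in FS than in VS, with a log2 ratio of 0.02 whose interval (−0.03 to 0.08) includes 0, and it was lowest in FI.

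Of the carnitine shuttle, 3 genes had a lower level in FS than in the other libraries, and Crot had its lowest in FI. Slc25a20, the carrier that exchanges acylcarnitine for carnitine across the inner mitochondrial membrane, was at 145 CPM for VS, 136 for VI, 84.9 for FS and 105 for FI. Cpt2, which returns the acyl group to CoA inside the mitochondrion, was at 205 CPM for VS, 181 for VI, 123 for FS and 174 for FI. FI was close to VI for Cpt2, with a log2 ratio of −0.06, whereas FS versus VS was −0.73. Crat (chr2:30400471-30415813) was at 117 CPM for VS, 116 for VI, 50.8 for FS and 99.2 for FI. Its FS library stood apart, at a log2 ratio of −1.21 (−1.30 to −1.12) to VS, and FI was above FS by 0.96 (0.87 to 1.06), the largest IT difference upward among the 31 genes. Crot, the peroxisomal carnitine octanoyltransferase that prepares shortened chains for export to mitochondria, was at 483 CPM for VS, 417 for VI, 375 for FS and 272 for FI. Unlike the other 3 it was lower after IT in both contrasts, at −0.21 and −0.46, and it was 1.53-fold lower in FI than in VI.

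The 9 enzymes of the mitochondrial cycle differed little among themselves. All 9 were lower in FS than in VS, with log2 ratios between −0.67 and −0.37 and a median of −0.53, as they were in FI versus VI, between −0.50 and −0.02 with a median of −0.20. Acadm, the medium-chain acyl-CoA dehydrogenase, was at 856 CPM for VS, 770 for VI, 543 for FS and 665 for FI. Hadha, the alpha subunit of the trifunctional protein, was at 617 CPM for VS, 540 for VI, 398 for FS and 482 for FI. Its beta subunit Hadhb was at 319 CPM for VS, 278 for VI, 214 for FS and 251 for FI. The 2 subunits kept the same order of libraries, VS, VI, FI and FS, and their log2 ratios were −0.63 and −0.57 in FS versus VS and 0.28 and 0.23 in FI versus FS. Their genes lie head to head on chromosome 5, Hadha at chr5:30118301-30155162 on the minus strand and Hadhb at chr5:30155248-30184593 on the plus strand, with 85 bases between them. Hadh, the dehydrogenase for medium and short hydroxyacyl-CoA, was at 671 CPM for VS, 574 for VI, 422 for FS and 406 for FI. It differed from Acadm and the trifunctional subunits in that FI was not above FS, and its ratio in FI versus VI, −0.50, was the lowest of the 9.

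The other 5 enzymes of the cycle, the dehydrogenases Acadvl, Acadl and Acads for very long, long and short chains, the hydratase Echs1 and the thiolase Acaa2, were lower by less than 1.5-fold in FS. Acadvl was at 251 CPM for VS, 270 for VI, 185 for FS and 243 for FI, and it was the 1 enzyme of the cycle that was higher in VI than in VS. Acaa2 was the highest of the 9 per gene length, with a mean of 751 FPKM. The electron transfer genes, which pass electrons from the dehydrogenases to ubiquinone, differed least between fibril and vehicle livers. Etfa, Etfb and Etfdh had log2 ratios between −0.37 and −0.34 in the sedentary pair and between −0.13 and 0.04 in the trained pair. Etfdh was at 271 CPM for VS, 219 for VI, 214 for FS and 225 for FI, so that VS alone stood apart and the other 3 libraries lay close together.

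Unsaturated fatty acids need auxiliary enzymes that move or remove double bonds. Eci1, the mitochondrial enoyl-CoA isomerase, was at 191 CPM for VS, 157 for VI, 113 for FS and 152 for FI. Its FI and VI libraries were nearly level, at a log2 ratio of −0.05 (−0.11 to 0.02), while FS was 1.70-fold below VS. Decr1, the mitochondrial dienoyl-CoA reductase, was at 303 CPM for VS, 239 for VI, 174 for FS and 197 for FI. Its peroxisomal counterpart Decr2 was at 225 CPM for VS, 176 for VI, 123 for FS and 113 for FI. Both reductases were lower in VI than in VS, at −0.34 and −0.36, but Decr1 was higher and Decr2 lower in FI versus FS, at 0.18 and −0.12. Eci2, an isomerase found in both organelles, was at 306 CPM for VS, 314 for VI, 240 for FS and 309 for FI, so that FS alone was low.

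By their median, the 7 peroxisomal genes differed more between fibril and vehicle livers than the genes of any other role. This did not hold gene by gene. Crat, of the carnitine shuttle, was at −1.21 in FS versus VS, whereas Scp2 and Hsd17b4 of the 7 were at −0.47 and −0.37. All 7 were lower in FS than in VS, with a median log2 ratio of −0.99 (1.99-fold lower), and lower in FI than in VI, with a median of −0.57 (1.48-fold lower); the medians of the other roles lay between −0.78 and −0.36 and between −0.43 and −0.08. Acaa1b (chr9:119148023-119157093) was at 2994 CPM for VS, 1949 for VI, 791 for FS and 933 for FI. Each vehicle library was more than 2-fold above each fibril library, with a log2 ratio of −1.92 (−1.94 to −1.90) between the sedentary pools and of −1.06 (−1.09 to −1.04) between the trained ones, or 3.78-fold and 2.09-fold lower. Acaa1a (chr9:119339676-119350299), the second thiolase, was at 784 CPM for VS, 592 for VI, 372 for FS and 395 for FI. It followed the order of Acaa1b at smaller size, with −1.08 and −0.58. The transcripts of the 2 thiolases are 95.3% identical over 1477 aligned positions and share 360 windows of 100 bases, 21.6% of those of Acaa1a and 22.6% of those of Acaa1b. The sequence of such a window does not tell which of the 2 genes a read came from.

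Ehhadh, the bifunctional hydratase and dehydrogenase of the peroxisomal cycle, was at 824 CPM for VS, 761 for VI, 415 for FS and 513 for FI. Abcd3, the membrane transporter that admits acyl-CoA to peroxisomes, was at 440 CPM for VS, 442 for VI, 247 for FS and 268 for FI. For Abcd3 the libraries fell into a vehicle and a fibril pair with almost no difference after IT, 0.01 in the vehicle and 0.11 in the fibril pair, the former of which turned below 0 with total counts. Pex11a (chr7:79735957-79743131), a membrane protein of peroxisome division, was at 182 CPM for VS, 196 for VI, 89.6 for FS and 165 for FI. As for Crat, its FS library stood apart, at −1.02 (−1.09 to −0.95) to VS, and FI was above FS by 0.88 (0.81 to 0.95). Scp2 was at 2386 CPM for VS, 2084 for VI, 1722 for FS and 1781 for FI, and its order of FI above FS turned with total counts. Hsd17b4, the second bifunctional enzyme, which also acts on branched chains, was at 504 CPM for VS, 451 for VI, 390 for FS and 437 for FI, and of the 7 it had the smallest ratio in both fibril contrasts, −0.37 and −0.05.

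**Figure D4:**
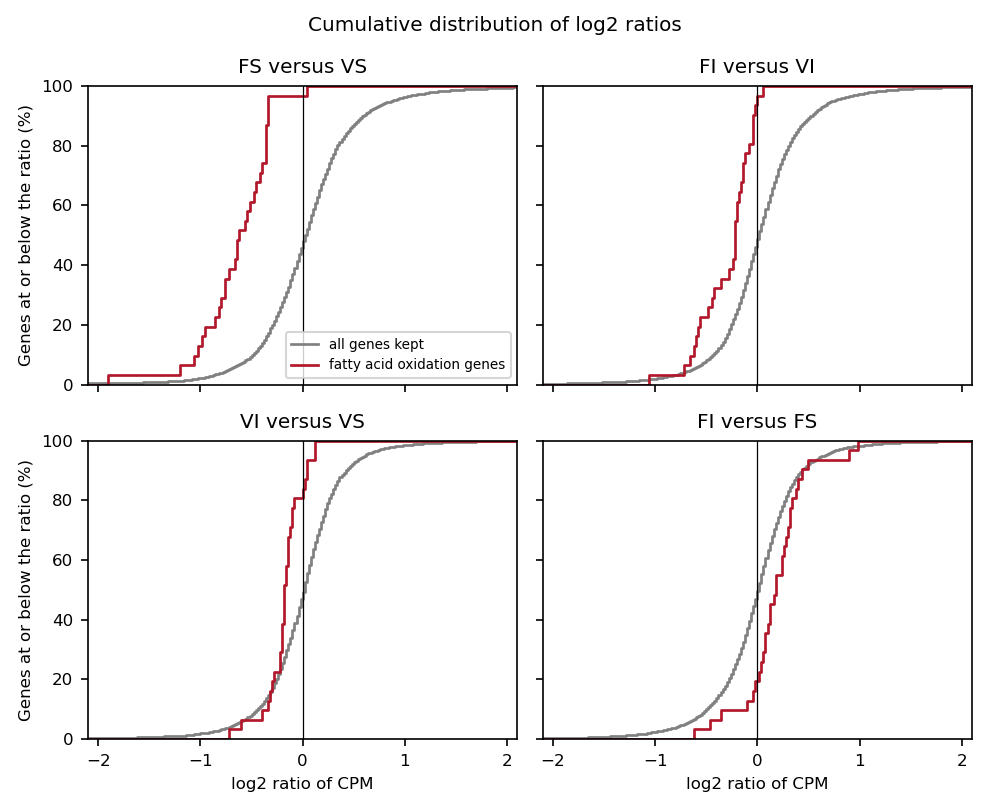
Share of genes (vertical axis, %) at or below a given log2 ratio of CPM (horizontal axis) in each contrast, for the 31 fatty acid oxidation genes and for all 12180 genes kept. The line of the 31 genes lies left of that of all genes in FS versus VS (medians −0.63 and 0.02) and FI versus VI (−0.23 and 0.01), slightly left of it in VI versus VS for ratios nearer to 0, and mostly right of it in FI versus FS.

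Both factors were also fitted together in 1 additive model over the 4 libraries, with edgeR's quasi-likelihood test and Benjamini-Hochberg adjustment over 11760 genes. Its 1 residual degree of freedom is the departure of the libraries from additivity. The fit draws the error of each gene toward the trend over all genes. The p-values thus measure a departure that is in part pooled over genes, and not the spread between mice. All 31 genes had a fitted change below 0 with amyloidosis. The share of all genes with a fitted change below 0 was not counted. In the contrasts of 2 libraries, 48.0% of all genes were lower in FS versus VS and 48.7% in FI versus VI. Of the 31 genes, 7 fell at an adjusted p under 0.05 (1.96% of all genes did). Acaa1b fell by 1.49 on the log2 scale (SE 0.215, edgeR adjusted p = 0.0146) and Abcd3 by 0.78 (SE 0.120, adjusted p = 0.0148). The others that fell were Decr2 by 0.75 (adjusted p = 0.0165), Acsl1 by 0.82 (0.0188), Acaa1a by 0.83 (0.0253), Ehhadh by 0.78 (0.0273) and Hadh by 0.58 (0.0444). Of these 7, the 2 thiolases, Abcd3 and Ehhadh belong to the 7 genes grouped here as peroxisomal. Decr2 is a peroxisomal enzyme of another group. The rest of the peroxisomal group, Scp2, Hsd17b4 and Pex11a, did not pass, nor did the peroxisomal Crot (edgeR adjusted p = 0.215, 0.412, 0.115 and 0.0761). Slc25a20 lay just outside the threshold (−0.58, edgeR adjusted p = 0.0519). Crat and Pex11a did not pass (edgeR adjusted p = 0.13 and 0.115), with fitted changes of −0.72 (SE 0.221) and −0.63 (SE 0.187). At an unadjusted p under 0.05, 23 of the 31 were lower (10.1% of all genes). With amyloidosis as the only factor none of the 31 passed and 8 of all genes did, and with 1 library left out in turn, an alternative chosen after seeing the data, at most 1 passed, Acaa1b without VI.

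For exercise, no gene of the 31 passed at an adjusted p under 0.05 in either direction by edgeR's quasi-likelihood test (0.663% of all genes were lower and 0.672% higher). At an unadjusted p under 0.05 there were 3, Fabp1 and Crot lower and Pex11a higher (14.5% of all genes in either direction). DESeq2 called 1 of the 31 (1.55% of all genes) and limma-voom 1 (1.94%), Fabp1 in both. The fitted change of Fabp1 with exercise was −0.68 (SE 0.140, edgeR adjusted p = 0.0702). The model takes the IT change to be equal in vehicle and fibril livers, whereas 20 genes had opposite directions, and the difference itself has no test with 1 library per group.

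Other genes of the pathway, 103 in lists of entry and its control, further mitochondrial and peroxisomal enzymes, ketone body synthesis, omega-oxidation and transcriptional control, were read from the same libraries, and 96 were expressed. Of the 96, 76 had a lower level in FS than in VS (48.0% of all genes), including 20 past 1.5-fold (7.47%), with 2 higher by that much (10.1%) and a median of −0.24. In FI versus VI 66 were lower (48.7% of all genes), 11 by more than 1.5-fold (6.08%), with a median of −0.16. The 33 further peroxisomal genes had a median of −0.23 in FS versus VS and in FI versus VI. That of the 17 further mitochondrial genes was −0.38 and −0.10, and that of the 5 genes of ketone body synthesis −0.56 and −0.07. With amyloidosis 9 of the 96 fell (1.96% of all genes) and 1, the branched-chain and bile acid oxidase Acox2, rose (2.64%) in the additive model. Of the acyl-CoA thioesterases, which release free fatty acids, Acot3 was at 183 CPM for VS, 131 for VI, 46.6 for FS and 64.3 for FI and fell by 1.501 (edgeR adjusted p = 0.0162). Acot4 fell by 1.16 and Acot2 by 1.35 (edgeR adjusted p = 0.00808 and 0.02). Hacl1, the lyase of peroxisomal alpha-oxidation, fell by 0.90 and Aldh3a2, the fatty aldehyde dehydrogenase, by 1.01 (edgeR adjusted p = 0.0165 and 0.0252).

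Genes that gate or control the pathway did not all share this order. Cpt1a, which commits fatty acids to the carnitine shuttle, was at 438 CPM for VS, 391 for VI, 394 for FS and 419 for FI, a span narrower than that of any shuttle gene above. Ppara was at 81.2 CPM for VS, 80.5 for VI, 61.7 for FS and 79.0 for FI, with only FS low. The omega-hydroxylases Cyp4a10 and Cyp4a14, both known PPARα targets, were also lowest in FS, but FI was close to or above VS. Cyp4a10 was at 1916 CPM for VS, 2173 for VI, 904 for FS and 1926 for FI, with FI below VS when scaled by total counts. Cyp4a14 was at 2938 CPM for VS, 3528 for VI, 1706 for FS and 3638 for FI, and both were higher by 1.09 on the log2 scale in FI than in FS. Cyp4a10 was named after its values were seen.

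With exercise 3 of the 96 genes fell (0.663% of all genes) and 1 rose (0.672%). Cd36, a fatty acid translocase, was at 71.8 CPM for VS, 26.5 for VI, 41.0 for FS and 22.5 for FI and fell by 1.15 (edgeR adjusted p = 0.0192). Adh4, an alcohol dehydrogenase that can oxidise omega-hydroxy fatty acids, fell by 1.14 (edgeR adjusted p = 0.0138), and Pparg, which was under 2 CPM in every library, fell as well. Acacb, which makes the malonyl-CoA that inhibits the carnitine shuttle, was at 34.3 CPM for VS, 55.7 for VI, 32.9 for FS and 82.7 for FI and rose by 1.02 (edgeR adjusted p = 0.0356). Both trained libraries lay below both sedentary ones for Cd36 and above them for Acacb. The coactivator Ppargc1a was at 11.0 CPM for VS, 19.9 for VI, 17.6 for FS and 25.6 for FI, lowest in VS, with a fitted change with exercise of 0.70 that did not pass (edgeR adjusted p = 0.0717). Cyp4a32 was at 46.8 CPM for VS, 66.5 for VI, 35.4 for FS and 64.9 for FI and missed the threshold narrowly (0.69, edgeR adjusted p = 0.0509).

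All 12 hepatocyte markers were expressed, at a summed level between 169900 CPM in VS and 192900 in FI, so the libraries are of liver as labelled. The summed level of 11 pericentral markers was 13310 CPM for VS, 11640 for VI, 7574 for FS and 10620 for FI, the same order as that of the fatty acid oxidation genes without Fabp1. Cyp2e1 supplied most of it, with 11180 CPM for VS, 9742 for VI, 6011 for FS and 8798 for FI, and 10 of the 11 were lower in FS than in VS. That of 12 periportal markers was 11960 CPM for VS, 15350 for VI, 14970 for FS and 17900 for FI. Macrophage markers, 9 in number, summed to 318 CPM for VS, 384 for VI, 492 for FS and 485 for FI, and 8 neutrophil markers, 3 of them expressed, to between 2.67 (VS) and 18.4 CPM (FS), of which Prtn3 alone made 0.593 and 13.1 CPM. The VS library also held skeletal muscle transcripts. The 13 muscle markers summed to 85.0 CPM there and to 11.95, 1.59 and 1.49 CPM for VI, FS and FI, and 7 of them, among them Mb, Ckm and Acta1, were at 0 in FI. Cpt1b, the muscle form of the gate to the carnitine shuttle, had 4 counts for VS, 14 for VI, 1 for FS and 12 for FI. The part of these markers in the differences of the fatty acid oxidation genes was not tested. Among the 31 genes, 25 had no stretch of 100 bases in common with another annotated gene; besides the thiolases, Hadhb shared 52.8% of its windows with Gm13910, Etfb 65.2% with Gm45233, Scp2 32.2% with Scp2-ps2 and Eci2 1.34% with Eci3, so their levels are less certain.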

How the data were processed

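The authors pooled liver tissue by group, and the deposited counts are whole reads per gene and library without normalization. The authors also deposited FPKM, which equal count divided by gene length and library total when recomputed. The submitters' processing notes name fastp 0.23.2, STAR 2.5, HTSeq 0.6.1 and mm10; the sources used here give neither strand setting nor annotation release.

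The 31 genes and all lists were chosen with earlier results of these data known. CPM were scaled by TMM (edgeR 4.0.16, R 4.3.3), and ratios were formed for the 12180 genes that reached 1 CPM in 1 library or more. A prior of 0.5 was added to counts before log2 ratios were taken; their 95% intervals are Clopper-Pearson bounds on the binomial share of a pair's reads, which cover counting error only. With 1 library per group, pairs were compared by size, more than 2-fold or 1.5-fold. The additive model used 11760 genes with at least 1 CPM in 2 libraries, robust glmQLFit and 3 coefficients. Tested on simulated data for amyloidosis with 11628 genes, the model recovered 185 of 200 changed genes. Whether this share holds for the 31 genes was not tested. Of these, 4 were lower by more than 2-fold in FS versus VS and 1 in FI versus VI. With IT, 20 were lower in VI versus VS and higher in FI versus FS, a difference the additive model has no term for. The share of unchanged genes called in that run is not reported here. Named were genes past 1.5-fold in any contrast, genes with an adjusted p under 0.05, the 3 highest and 3 lowest by FPKM and both thiolases, 21 in all; of other pathway genes, Cpt1a, Ppara, Cyp4a14, Ppargc1a and 2 that are not reported here, and the 5 with the largest shared change in each pair of contrasts. Further genes named were chosen to describe their role. Alternatives were DESeq2 1.42.0 and its size factors, limma-voom (limma 3.58.1), total counts, FPKM, other filters, and single factors. Coordinates are those listed with the counts, on mm10 (GRCm38); all 31 genes were found in GENCODE M21, 19 with the same start and end, 2 with a same-strand and 12 with an opposite-strand overlap of exons. Promoters came from RefSeq (GRCm38.p6); overlaps and shared windows were computed with Python 3.11.15 and Biopython 1.88, and figures with matplotlib 3.10.9.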

Additional observations from a re-analysis of the deposited data

Results flagged for a closer look

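Of the 21 named genes, 12 moved in opposite directions with IT, lower in VI than in VS and higher in FI than in FS, with both counting intervals off 0. By direction alone, 20 of the 31 genes did so (19.5% of all genes). The share of all genes with both intervals off 0 was not counted. The difference of the IT changes, fibril minus vehicle on the log2 scale, was not tested, since each group is 1 library. It was 0.86 for Acaa1b, 0.72 for Eci1, 0.67 for Cpt2, 0.52 for Decr1 and 0.49 for Acaa1a. It was 0.47 for Hadha, 0.44 for Acadm, 0.43 for Hadhb, 0.42 for Ehhadh and 0.40 for Slc25a20. Scp2 and Slc27a2 had the smallest differences, 0.24 and 0.23, and with total counts both were no longer higher in FI than in FS.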

How the results depend on the processing

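With a threshold of 1.5-fold in place of 2-fold, the number of genes counted went from 0 to 2 in VI versus VS, from 0 to 3 in FI versus FS, from 4 to 16 in FS versus VS and from 1 to 5 in FI versus VI, and with both thiolases summed it was 0 in FI versus VI. The median log2 ratio of FI versus FS was 0.09 with total counts and with FPKM at either pseudocount (0.0943, 0.0937 and 0.0943), against 0.17, and the mean in FI versus VI was −0.31 against a median of −0.23. The number of the 31 genes called with exercise was 0 in the main fit (1.34% of all genes). It was 1 with DESeq2 (1.55%), DESeq2 size factors (2.05%), total counts (2.34%) and limma-voom (1.94%). Without a filter on low counts it was 3 (3.71%). With amyloidosis the number was 7 in the main fit (4.59% of all genes) and 11 with DESeq2 (3.96%). It was 12 with total counts (6.67%) and 17 without a filter (7.62%), settings that called more of all genes as well. With amyloidosis as the only factor it was 0 (0.068%). Fits of a single factor with each library left out in turn were chosen after seeing the data. In them a lone library is assumed to vary like the others. The cause of these changes in number was not tested. Of the 126 single gene changes refitted by DESeq2, limma-voom or edgeR without robust estimation, 119 stayed on their side of the threshold and 7 passed it, all in the same direction. No paired analysis was possible because each group is 1 pooled library and the labels give no replicate numbers.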
